A study of Mus musculus with 8 samples.

Results

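Compartment borders were taken as the places along a mouse autosome where the chromatin turned from compartment A to compartment B or back in Hi-C maps of control mouse embryonic stem cells (mESCs). Each autosome was cut into bins of 500 kb, the 2 SCR AMO maps were balanced, divided by the mean contact at each distance and averaged, and eigenvector 1 of the correlation matrix of that map gave each bin a sign. A border was a change of sign between adjacent kept bins with at least 3 bins (1.5 Mb) of one sign on each side. This gave 280 borders among 4685 positions that had 3 kept bins on each side, and among 669 changes of sign of any length. Of these borders, 138 ran from A to B along the chromosome and 142 from B to A. The borders were thus chosen by the contacts within chromosomes of the SCR AMO samples, so the values of these samples there are a description, while the L1 AMO maps took no part in the choice. Which sign was called A was set on chromosome 1 by its repeat content, as the study tabulates it. On the other autosomes it was set by contacts with chromosome 1, and contacts between chromosomes had no other part in the choice.

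The study measured chromatin contacts in mESCs by sisHi-C, a Hi-C protocol for small numbers of cells, after nucleofection of an antisense morpholino oligonucleotide (AMO). L1 AMO targets the RNA of L1, a long interspersed repeat, and SCR AMO is a scrambled control, so all 4 samples received an oligonucleotide. The dose was 5 nmol per 100 µl, nucleofected cells were sorted at 12 h and harvested at 36 h, and each group had 2 samples. The maps are averages over sorted cells, so fewer cells with a contact and weaker contact in each cell cannot be told apart. The H3K9me3 samples of the series are not analysed here.

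Compartment A is the gene-rich, transcribed part of the genome, and compartment B is the gene-poor, mostly silent part, which lies largely at the nuclear lamina and around nucleoli. Chromatin of one compartment contacts its own kind more often than the other kind, which gives Hi-C maps their plaid pattern, and a border is where the partners of a chromosome region change. In mouse, L1 repeats are dense in B and the short B1 repeats are dense in A.

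The sequences of both AMOs are shown because they are the only difference in treatment between the groups. They are given 5′ to 3′ in lower case, each has 25 bases, and the longest run of bases they share is 4.
L1 AMO: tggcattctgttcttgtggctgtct
SCR AMO: cctcttacctcagttacaatttata

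Depth was uneven and did not follow the groups. SCR AMO replicate 1 held 112381720 contacts and replicate 2 held 22252054, whereas L1 AMO replicates 1 and 2 held 58030519 and 46263849. Both SCR AMO totals depart from the valid pairs that the study tabulates while both L1 AMO totals are close to them, and an effect of the way these matrices were built and one of the AMO cannot be told apart. The 9 pairs of bins across a border held a median of 7808.5, 1444, 4364 and 3470 counts in these samples, in that order, and at least 181 at any border.

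The groups also differed by whole chromosomes. Chromosome 1 held 7.96% of the contacts within autosomes in both SCR AMO samples, against 10.7% and 10.8% after L1 AMO, and chromosome 14 held 4.17% and 4.18% against 5.51% and 5.59%. The log2 ratio of these shares was 0.43 for chromosome 1 and 0.41 for chromosome 14, and it lay between -0.12 and 0.005 on the other 17 autosomes. The shares of contacts with other autosomes rose alike, by 0.45 and 0.43 on the log2 scale. A difference in the number of copies of chromosomes 1 and 14 between the cells of the groups was not tested. Observed/expected values are scaled within each chromosome, so a change of a chromosome's total cancels in them, and raw counts do not have this property. The 31 borders on these chromosomes were therefore also left out.

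In the control maps, contacts across a border were fewer than expected from the distance alone. The mean observed/expected value of the 3 x 3 bins across, averaged over the 280 borders, was 0.780 and 0.776 after SCR AMO. The value across was below 1 at 237 and 239 of the borders, and below both within-side values at 189 and 192. The pairs of bins within a side differed by compartment, with a mean of 0.894 and 0.892 on the A side and 1.30 and 1.30 on the B side. Near their borders, B bins thus met each other more than the chromosome average at the same distance, and A bins less. This was not particular to borders. Across the centre of windows wholly inside a compartment, mean log2 values in SCR AMO were -0.19 and -0.21 in A and 0.25 and 0.26 in B. Within the sides of borders they were -0.19 and -0.19 in A and 0.26 and 0.27 in B. The pairs across a centre include longer distances than those within a side. The contrast of a border, the log2 ratio of the mean within-side value to the value across, ranged from -0.69 to 2.42 with a median of 0.50, and the SCR AMO samples ranked the borders nearly alike (r = 0.989 over 280 borders, a correlation across borders of 2 maps).

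L1 AMO maps had more contact across the borders and less contrast. The mean log2 observed/expected value across was -0.43 and -0.44 after SCR AMO and -0.34 and -0.32 after L1 AMO. The groups did not overlap, the L1 AMO mean was 0.10 higher, and the 4 differences between samples ran from 0.092 to 0.118. Without chromosomes 1 and 14 the difference was 0.11 over 249 borders. On the linear scale the value rose from 0.778 ± 0.003 to 0.824 ± 0.005 (SD, n = 2 samples each). No p is given for contacts within chromosomes at single borders or for their means, since the SCR AMO values had a part in choosing them.

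The within-side values, taken over pairs of distinct bins, moved towards each other. Contacts within single bins, which they leave out, moved apart. On the A side these went from 1.01 and 1.02 in SCR AMO to 1.05 and 1.06 in L1 AMO. On the B side they went from 0.942 and 0.939 to 0.924 and 0.913. The values that follow are again those of distinct bins. On the A side the mean log2 value went from -0.19 and -0.19 in SCR AMO to -0.13 and -0.12 in L1 AMO, a difference of 0.07. On the B side it went from 0.26 and 0.27 to 0.22 and 0.22, a difference of -0.05. Both differences were larger than the spread between replicates, which was at most 0.0052 (SD). The contrast was 0.50 and 0.51 after SCR AMO and 0.41 and 0.40 after L1 AMO, lower by 0.10 (the 4 differences ran from -0.117 to -0.092). The order of the borders was much the same: the contrast of the 2 groups correlated at r = 0.971 across the 280 borders, whose maps share their bins and base composition.

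**Figure D1:**
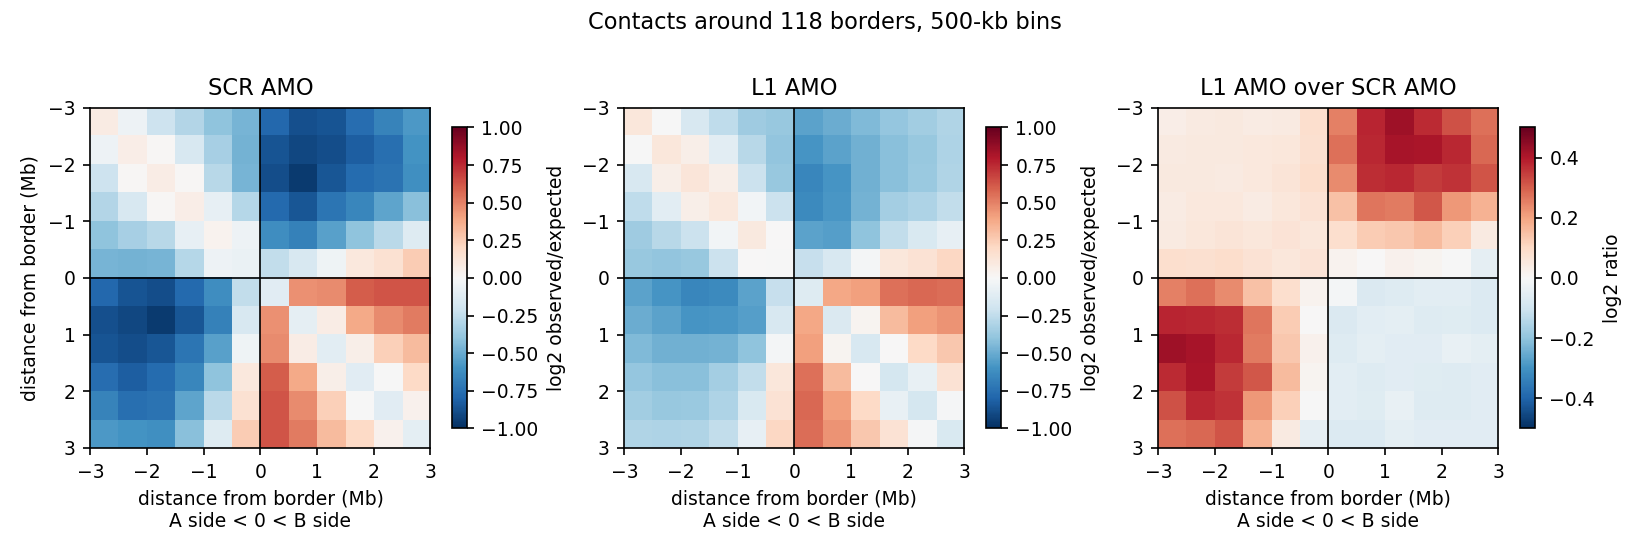
Mean log2 observed/expected contact of 500-kb bins around the 118 borders with at least 6 bins of one sign on each side, with the A side at negative and the B side at positive distance, for SCR AMO, L1 AMO and their log2 ratio (means of 2 samples each). The off-diagonal blocks hold the pairs across the border, which are bluest in both groups and reddest in the ratio away from the A bin that touches the border. The diagonal holds contacts within single bins, which the within-side values leave out.

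At single borders the direction was common but not universal. Without overlap between the groups, L1 AMO was higher across the border at 185 of 280 (66.1%) and lower at 34 (12.1%). Of all 4685 windows of 6 bins, 38.1% were higher and 33.7% lower in this sense. Contrast was lower without overlap at 187 borders (66.8%) and higher at 26 (9.29%), where all windows gave 36.2% and 28.1%. The median change across a border was 0.09, with quartiles at 0.011 and 0.19 and a range from -0.21 to 0.67, and the median over all windows was 0.006. As the SCR AMO contacts chose the borders, these counts describe them and are no test.

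Windows that lay wholly inside a compartment served as the comparison within the same maps. Their mean log2 value across the centre was 0.008 and 0.003 after SCR AMO and 0.010 and 0.006 after L1 AMO, over 2387 windows. This is a difference of 0.003, within the spread between replicates. It was made of 2 opposite parts: windows inside A gained 0.04 and windows inside B lost 0.04. Borders minus windows inside compartments gave -0.44 and -0.44 in SCR AMO and -0.35 and -0.33 in L1 AMO, a difference of 0.10 whose 4 values between samples ran from 0.0897 to 0.114.

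**Figure D2:**
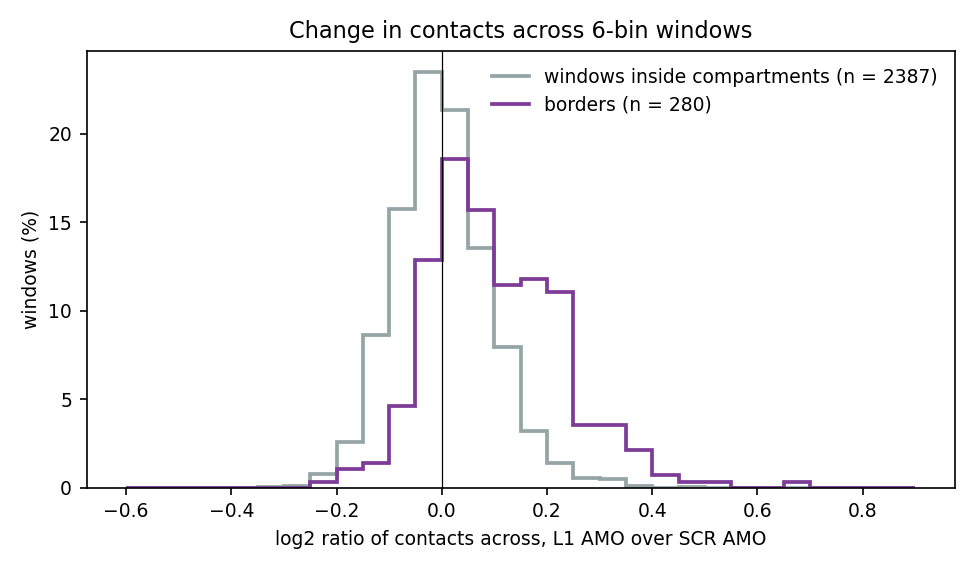
Share of windows (percent, y axis) by their log2 change from SCR AMO to L1 AMO in contacts across the centre of 6 bins (x axis, steps of 0.05), for the 280 borders and for 2387 windows inside compartments. The borders centre on a median of 0.09, to the right of the windows inside compartments, and the 2 distributions overlap.

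Borders that the contacts within chromosomes did not choose moved in the same direction. Eigenvector 1 of the contacts between chromosomes, over all 4 samples, called 268 borders by the same length rule. Of the 280 borders, 210 (75%) had one of them within 1 bin in the same direction, and these made up 78.4% of the 268. Across the 268 borders the mean log2 value was -0.52 and -0.54 in SCR AMO and -0.41 and -0.40 in L1 AMO, a difference of 0.13. A two-sided exact permutation test over the 4 samples gave p = 0.333, the smallest value that 2 samples against 2 allow, so no test over samples here can reach 0.05. Their contrast was 0.60 and 0.62 against 0.50 and 0.48 (exact permutation p = 0.333, two-sided). When borders were called from SCR AMO replicate 1 and only replicate 2 served as the control, the value across differed by 0.11, and with the roles exchanged by 0.10, alternatives added after the data were seen.

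Averaged over the pairs at each distance, the change across grew with the distance between the bins. For bins next to each other across the border (0.5 Mb), the mean observed/expected value was 0.871 and 0.874 in SCR AMO and 0.881 and 0.885 in L1 AMO, a log2 ratio of 0.017 (the 4 ratios between samples ran from 0.011 to 0.023). The ratio was 0.04 at 1 Mb, 0.06 at 1.5 Mb and 0.14 at 2 Mb. At 2.5 Mb, between the outermost bins of the 3 x 3 block, the values were 0.698 and 0.685 in SCR AMO and 0.779 and 0.804 in L1 AMO, a log2 ratio of 0.19 (0.158 to 0.231). The 118 borders with at least 6 bins on each side carried the trend further, to 0.35 at 4.5 Mb (0.336 to 0.374), with 0.28 at 5.5 Mb. Within the A side of these borders the ratio stayed between 0.05 and 0.08 from 0.5 to 2.5 Mb, and within the B side between -0.07 and -0.05.

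**Figure D3:**
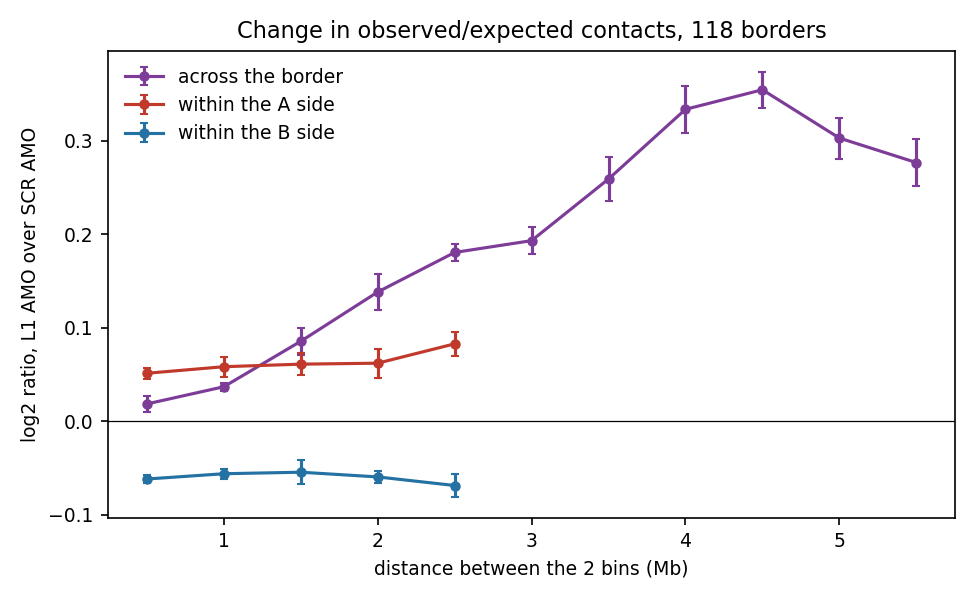
Log2 change from SCR AMO to L1 AMO in mean observed/expected contact (y axis) by the distance between the bins in Mb (x axis), across the border and within each side, for 118 borders. Points are means of 2 samples per group and bars span the 4 ratios between samples. The line across the border climbs from 0.02 at 0.5 Mb to 0.35 at 4.5 Mb, while the lines within the sides stay nearly level above and below 0.

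The gain across was also uneven between the bins of the A side. The A bin that touched the border had contacts with the nearest, the middle and the farthest of the 3 B bins that changed by 0.017, 0.010 and -0.009 on the log2 scale. The A bin 2 steps from the border changed by 0.08, 0.12 and 0.09 with the same B bins, and the A bin 3 steps away by 0.13, 0.21 and 0.19. In the control maps the touching A bin met these B bins at observed/expected values of 0.871 and 0.874, 0.936 and 0.940, and 1.14 and 1.13. The A bin 3 steps away met the nearest B bin at 0.621 and 0.617 in SCR AMO and at 0.673 and 0.681 in L1 AMO. Low control values and large changes therefore stood on the same pairs of bins.

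Raw counts were tested at every window, and the calls are read at the 268 borders called from contacts between chromosomes. In edgeR's quasi-likelihood test on the counts of the 9 pairs across, with TMM normalization, 57 of these 268 borders were higher in L1 AMO (21.3%) and 14 lower (5.22%) at a Benjamini-Hochberg adjusted p under 0.05, beside 16.0% and 7.21% of all windows. At the 280 borders, where the SCR AMO counts had a part in the choice and the calls are a description, 54 (19.3%) were higher and 9 (3.21%) lower. All 381 windows of chromosome 1 and 234 of the 235 windows of chromosome 14 were called higher in that fit. The balance of calls turned with the scaling, since without TMM 43 of the 268 borders (16.0%) were higher and 50 (18.7%) lower, beside 14.7% and 28.7% of all windows. With the total of each chromosome in each sample as the offset, added after the data were seen, 34 of the 268 (12.7%) were higher and 13 (4.85%) lower, beside 5.29% and 6.04% of all windows. For the pairs of bins 1.5 to 2.5 Mb apart alone, with the same offset, 111 of the 268 (41.4%) were higher and 5 (1.87%) lower, beside 14.6% and 10.9% of all windows. The same fits gave 32 and 12, and 104 and 8, of the 280 borders. The largest differences at these borders lay at successive borders of chromosome 6, at 0.86, 0.94 and 0.98 on the log2 scale with TMM. With the chromosome offset they were 0.80, 0.88 and 0.92, while the share of contacts within this chromosome differed by 0.005. Neither the offset nor leaving out chromosomes 1 and 14 removes this local difference, and its cause was not tested.

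Every autosome moved in the same direction. The mean value across was higher and the mean contrast lower after L1 AMO, with no overlap between the groups, for 19 of 19 autosomes. The largest loss of contrast was on chromosome 9, from 0.56 and 0.59 in SCR AMO to 0.42 and 0.38 in L1 AMO over 15 borders, and the smallest on chromosome 14, from 0.46 and 0.50 to 0.43 and 0.44 over 11 borders. Chromosome 7 had the highest contrast, at 0.86 and 0.89 in SCR AMO and 0.73 and 0.73 in L1 AMO over 18 borders. Of these borders, 4 had a window with a gap of left-out bins, and they include the highest contrasts of this chromosome. The number of borders ran from 7 on chromosomes 15 and 16 to 25 on chromosome 3.

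**Figure D4:**
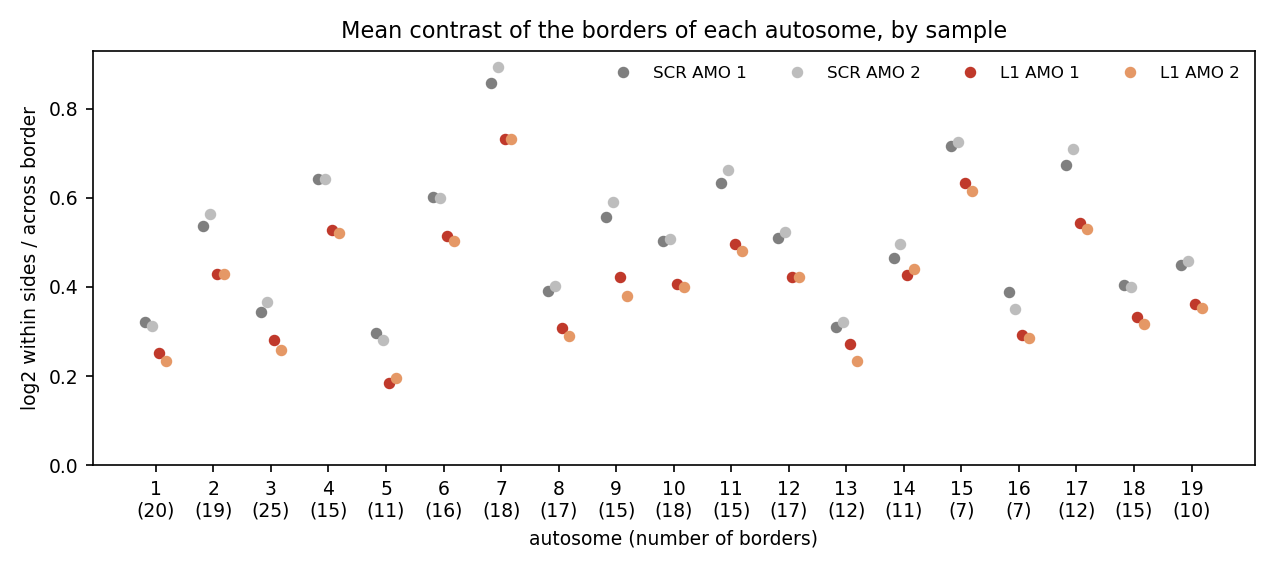
Mean contrast (log2 of within-side over across-border contact, y axis) of the borders of each autosome in each of the 4 samples, with the number of borders under each autosome. Both L1 AMO points lie below both SCR AMO points on all 19 autosomes.

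Single borders are named by their position in the mm9 build, as the end of the bin to their left, and genes near them are not named because no annotation of that build was used here. The borders with the largest changes were picked by these values, which are therefore a description. The largest rise was at 94 Mb of chromosome 11, from B to A, where the value across was 0.364 and 0.314 in SCR AMO and 0.523 and 0.550 in L1 AMO, a log2 change of 0.67. At 122 Mb of chromosome 2, from A to B, it went from 0.382 and 0.357 to 0.515 and 0.538. At 22.5 Mb of chromosome 9 it went from 0.442 and 0.446 to 0.596 and 0.636. These 3 borders were among the most closed in the control, with values across well under 0.5, and they stayed closed in L1 AMO, with values across under 0.64. The borders at 48 Mb of chromosome 19 and 74.5 Mb of chromosome 10 followed, with log2 changes of 0.44 and 0.41. All 5 of these borders had their sign change in the same bin in both L1 AMO samples. Their raw counts differed less, by 0.12, 0.11, 0.10, 0.23 and 0.11 on the log2 scale with TMM, in the order named. With the chromosome offset these differences were 0.15, 0.14, 0.10, 0.20 and 0.13.

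The largest falls came mostly from borders that were open in the control. At 55.5 Mb of chromosome 19 the value across was 1.14 and 1.12 in SCR AMO and 0.965 and 0.985 in L1 AMO, a log2 change of -0.21. At 25 Mb of chromosome 16 it went from 1.52 and 1.54 to 1.35 and 1.33. At 93.5 Mb of chromosome 5 it went from 1.25 and 1.38 to 1.22 and 1.14, and this window holds a left-out bin. Values across above 1 mean that the sides met each other more than the chromosome average at that distance. At 84.5 Mb of chromosome 4 the value went from 1.32 and 1.35 to 1.20 and 1.21. The exception was 20.5 Mb of chromosome 14, the border with the highest contrast of all, where the value was 0.198 and 0.182 in SCR AMO and 0.172 and 0.170 in L1 AMO. Its contrast rose from 2.37 and 2.47 to 2.72 and 2.76, against the direction of most borders. Its raw counts differed by 0.34 on the log2 scale with TMM and by -0.12 with the chromosome offset. With 2 x 2 bins the change across was 0.025, so its direction depended on the block. A sign change was not found within 3 bins of this border in L1 AMO replicate 2, nor within 3 bins of that at 84.5 Mb of chromosome 4 in either L1 AMO sample.

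The next highest contrasts in the control were all on chromosome 7, at 35, 39, 32 and 25 Mb, and each of these windows holds a gap of left-out bins. The 6 kept bins of the window at 39 Mb span positions 37500001 to 47500000, and those of the window at 25 Mb span 20500001 to 26500000. The part of these gaps in the values was not tested. Their B sides had within-side values of 3.81 to 19.5 after SCR AMO and 3.58 to 16.6 after L1 AMO. The values across overlapped between the groups at all 4 of these borders. The 5 lowest contrasts were at 170.5 and 5.5 Mb of chromosome 1, 42.5 Mb of chromosome 12, 25 Mb of chromosome 16 and 72.5 Mb of chromosome 13, from -0.74 to -0.44 over both SCR AMO samples. There the contacts across exceeded the mean of those within the sides, and all 5 borders still had a positive step in contacts with other chromosomes in each of the 4 samples.

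On chromosome 17, which had 12 borders, 10 had higher values across in both L1 AMO samples, 1 was lower and 1 overlapped. The largest rise was at 79 Mb, from B to A, from 0.569 and 0.548 in SCR AMO to 0.697 and 0.695 in L1 AMO. Next came 57.5 Mb, from 0.470 and 0.487 to 0.566 and 0.570, and 43 Mb, from 0.540 and 0.489 to 0.602 and 0.606. These borders lie at the ends of compartments of different lengths, with 5, 3 and 11 bins on their shorter sides, and the border at 57.5 Mb shares its A side with that at 56 Mb. The borders at 75.5, 81.5, 23.5, 56, 89, 71 and 83.5 Mb rose by 0.23 to 0.04 on the log2 scale, in that order. At 49.5 Mb the value was 0.933 and 0.967 in SCR AMO and 0.924 and 0.932 in L1 AMO, and at 5 Mb it was 1.11 and 1.12 against 1.08 and 1.14.

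Contacts with other chromosomes were used to ask whether the sides of a border still differed in their partners. For each side, raw contacts with A bins of other autosomes were divided by those with B bins, each per bin available, on the log2 scale. The step is the A side minus the B side. These counts were not balanced. The mean step was 0.85 and 0.75 after SCR AMO and 0.84 and 0.77 after L1 AMO. The groups overlapped (difference 0.0003, the 4 differences ran from -0.080 to 0.081, exact permutation p = 1, two-sided). All 280 borders had a step above 0 in each of the 4 samples. The orientation of every autosome but chromosome 1 by contacts with chromosome 1 favours this sign. Both L1 AMO samples had the larger step at 54 borders (19.3%) and the smaller at 47 (16.8%), beside 22.9% and 22.9% of all windows for the size of their step.

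The ratio of A to B partners was lower after L1 AMO by a like amount on both sides. Since the counts are raw, a genome-wide change in the coverage of A bins against B bins would enter this ratio on both sides alike. Its part was not tested. The preference for A partners on the A side was 1.00 and 0.88 in SCR AMO and 0.81 and 0.65 in L1 AMO. On the B side it was 0.14 and 0.12 in SCR AMO and -0.03 and -0.12 in L1 AMO. Each side thus fell by 0.21 on the log2 scale, with the 4 differences from -0.346 to -0.071 on the A side and from -0.265 to -0.152 on the B side (exact permutation p = 0.333 for both, two-sided). The sharpest drop from one bin to the next lay at the border itself in all samples, at -0.55 and -0.48 in SCR AMO and -0.53 and -0.49 in L1 AMO, with -0.27 to -0.24 between the second and first A bins and -0.18 to -0.16 between the first and second B bins. At this bin size the sharpest drop thus lay between the same bins in both groups.

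Most borders were found again in the L1 AMO maps. A sign change in the same direction lay in the same bin at 195 borders in L1 AMO replicate 1 and at 173 in replicate 2, and within 1 bin (500 kb) at 261 and 247. It lay within 1 bin in both for 244 of 280 borders (87.1%). The single SCR AMO maps, which chose the borders, had 261 and 265 in the same bin and all 280 within 1 bin. The 36 borders not found in both L1 AMO maps had a lower contrast in the control (median 0.23) than the other 244 (median 0.52), and a smaller step in contacts with other chromosomes (median 0.50 against 0.83).

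The changes of sign that moved went almost all the same way. In L1 AMO replicate 1, 82 lay 1 to 3 bins inside the former A side and 1 inside the former B side, and in replicate 2 these counts were 90 and 1. A bins made up 50.9% of the bins in the mean SCR AMO map and 43.6% and 39.9% in the L1 AMO maps. With a column-centred principal component, added after the data were seen, 64 and 67 moved into the A side and 1 and 4 into the B side. Zero was also placed in each autosome so that the share of A bins was that of the SCR AMO map. With this setting, also added after the data were seen, 18 and 24 moved into the A side and 23 and 25 into the B side. A fixed share makes moves into the 2 sides nearly offset each other, so these counts cannot decide the direction. In this setting 270 borders (96.4%) were found within 1 bin in both samples. On chromosome 14 of L1 AMO replicate 2, eigenvector 1 correlated with the SCR AMO one at r = 0.638 across its 240 bins, against 0.952 or more on every other autosome of the L1 AMO samples, and 7 of its 11 borders had no change within 3 bins. Without chromosome 14, 242 of 269 borders were found again.

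**Figure D5:**
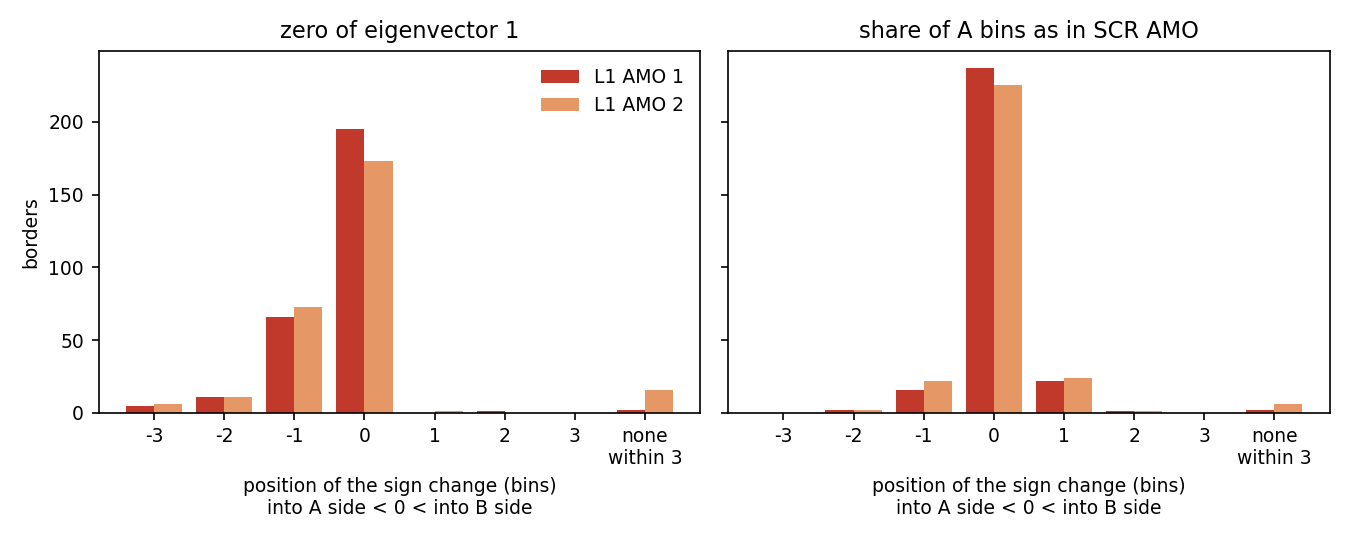
Number of the 280 borders (y axis) by the position of the nearest sign change of the same direction in each L1 AMO map, in 500-kb bins from the border (x axis, negative into the A side). With the zero of eigenvector 1 (left) the moved changes lie at negative positions, 82 and 90 against 1 and 1, and with the share of A bins set to that of SCR AMO (right) they lie on both sides, 18 and 24 against 23 and 25.

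Borders of higher control contrast gained more across, and those with the shortest sides gained less. Median control contrast also rose with the length of the shorter side, at 0.46, 0.53 and 0.80 in the 3 classes below, so the 2 traits were not separate. The 135 borders whose shorter side had 3 to 4 bins gained a median of 0.06 across, the 102 with 5 to 9 bins 0.12, and the 43 with 10 or more bins 0.12, and over the 280 borders the number of bins of the shorter side correlated with the change at r = 0.12. Control contrast, taken from SCR AMO replicate 2, correlated with the change across, taken from SCR AMO replicate 1 to L1 AMO, at r = 0.48 over 280 borders. Borders share bins with their neighbours and all values come from 4 maps, so this is a description. Position along the chromosome had r = 0.11.

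The rule's limit of 3 bins fell inside a continuum of control values. In blocks of 2 x 2 bins across, sign changes with a shorter side of 2 bins, just outside the rule, had mean log2 values of -0.26 and -0.26 in SCR AMO and -0.22 and -0.21 in L1 AMO (134 changes). Those with 3 bins, just inside it, had -0.33 and -0.35 in SCR AMO and -0.27 and -0.26 in L1 AMO (91 changes). With 4 bins the values were -0.37 and -0.37 in SCR AMO and -0.32 and -0.31 in L1 AMO (44 changes). With 1 bin they were -0.060 and -0.055 in SCR AMO and -0.067 and -0.065 in L1 AMO (249 changes), so no gain was seen there.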

How the data were processed

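The authors deposited raw counts of contacts between 500-kb bins, made from sisHi-C read pairs with HiC-Pro (version 2.7.1b in the submitters' processing notes), for the 4 Hi-C samples on mm9. Other mapping options are not given in the sources used here. The 2 matrices of each L1 AMO sample were added. Bins were assigned to chromosomes in mm9 order, and contacts across chromosome ends were at most 0.098 of those inside. A bin was dropped where any sample covered it at under 0.1 of the median of its chromosome, and 4780 autosomal bins remained.

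Each autosome was balanced by iterative correction and divided by the mean at each distance. The sign of eigenvector 1 was set on chromosome 1 by the B1/L1 ratio that the study tabulates, and elsewhere by contacts with chromosome 1. Python 3.11.15 with numpy 2.4.6 and scipy 1.17.1 was used. The count tests ran in edgeR 4.0.16, with DESeq2 1.42.0 as the alternative (R 4.3.3), on windows of at least 10 counts on average. The steps were tested on simulated data. The named borders are the 5 largest rises, the 5 largest falls, the 5 highest and the 5 lowest contrasts in SCR AMO, and those of chromosome 17. The borders, the named ones and the tests were chosen with earlier results of these data known. The study's methods give the replicates as independent transfection experiments, and the p-values measure the spread between these samples. Alternatives covered balancing, block size, distance, coverage, the maps that call the borders, single matrices, thinning, leaving out samples or chromosomes, pairing and the scaling of counts.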

Additional observations from a re-analysis of the deposited data

How the results depend on the processing

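The differences across borders, within both sides and in contrast kept their direction under every alternative run. The difference across ranged from 0.041 (bins 0.5 and 1 Mb apart only) to 0.21 (5 x 5 bins), and that in contrast from -0.21 to -0.041. The difference within the A side fell to 0.011 and that within the B side to -0.015 without balancing. At 0.5 Mb the ratio across turned to -0.0080 without balancing. The step was taken from raw contacts except with genome-wide balancing, where its difference was 0.017. The other balancing settings changed only which bins were called A or B and which borders were called. The difference in the step with other chromosomes lay on either side of 0, at -0.047 without balancing, -0.0038 when balancing left out contacts within 1 bin, -0.0095 with 5 x 5 bins, -0.0017 with consecutive windows, -0.0016 with the first L1 AMO matrices, and from -0.049 to 0.050 with a sample left out. It was 0.058 at borders called from contacts between chromosomes. In the count test, borders called higher and lower numbered 42 and 55 without TMM (15% and 19.6%, beside 14.7% and 28.7% of all windows), 71 and 27 with a replicate block (25.4% and 9.64%, beside 21.1% and 17.4%), 57 and 14 for borders called from contacts between chromosomes, 21 and 4 without chromosomes 1 and 14 (8.43% and 1.61%, beside 2.78% and 2.43%), 113 and 13 for pairs 1.5 to 2.5 Mb apart (40.4% and 4.64%, beside 23.4% and 14.8%), 104 and 8 for these pairs with the chromosome offset, 32 and 12 with the chromosome offset, and 59 and 20 with that offset and the block (21.1% and 7.14%, beside 13.6% and 14.7%). DESeq2 gave 44 and 6 (15.7% and 2.14%, beside 14.9% and 4.46% of all windows). Leaving out a sample gave 35 to 61 higher and 1 to 21 lower, with 35 and 1 without SCR AMO replicate 1, 39 and 3 without SCR AMO replicate 2, 59 and 21 without L1 AMO replicate 2 and 61 and 16 without L1 AMO replicate 1. In contacts across windows, same-numbered samples did not deviate together (r = -0.007 over windows), and the main values do not pair them. This does not settle the pairing for the count test or the step. For the step, replicate 1 was above replicate 2 in both groups, and the paired differences were -0.018 and 0.019. A replicate block lowered the common dispersion of the count test from 0.000634 to 0.000243. Paired differences gave the same means (0.10 across, -0.10 in contrast, 0.07 within A, -0.05 within B, 0.0003 for the step, 0.017 and 0.19 at 0.5 and 2.5 Mb, with a smallest exact p of 0.5). The borders found again in both L1 AMO maps numbered 170 in the same bin, 174 of the 263 called without balancing, and 190 when the single map needed 3 bins on each side. Of the 30 named borders, 9 changed sign under some alternative. The groups overlapped at 5 of them, at 39, 25 and 32 Mb of chromosome 7, 5 Mb of chromosome 17 and 170.5 Mb of chromosome 1, with values up to 0.33 at 25 Mb of chromosome 7 with 2 x 2 bins, against -0.11. The groups did not overlap at the other 4: 83.5 Mb of chromosome 17 (-0.017 without balancing, -0.020 with 2 x 2 bins, -0.055 for near bins, -0.013 with the first matrices), 49.5 Mb of chromosome 17 (0.087 with 5 x 5 bins), 20.5 Mb of chromosome 14 (0.025 with 2 x 2 bins, 0.027 for near bins) and 84.5 Mb of chromosome 4 (0.035 for near bins). The cause was not tested. Depth limits single borders in the shallowest sample more than the means over borders, which the number of samples limits.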

Other observations

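The sides of a border also differed in how many of their contacts left the chromosome. In the SCR AMO samples, 26.4% and 27.3% of the contacts of A-side bins were with other autosomes, against 23.6% and 24.8% of those of B-side bins. In the L1 AMO samples these shares were 19.03% and 17.2% on the A side and 17.7% and 16.6% on the B side. The gap between the sides was 2.83 and 2.50 percentage points in SCR AMO and 1.30 and 0.607 in L1 AMO, with no overlap between the groups, and the share of contacts between chromosomes was lower in L1 AMO genome-wide, at 15.8% and 14.2% against 22.3% and 22.8%.

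Coverage changed at the borders as well. Raw contacts of the A bin 2 steps from the border were 1.15 and 1.13 times the autosomal median in SCR AMO and 1.10 and 1.06 times in L1 AMO. The B bin 2 steps from the border held 0.854 and 0.863 in SCR AMO and 0.880 and 0.903 in L1 AMO. Balancing removes such differences between bins, and their part in the contacts across borders was not tested.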
